A study of Mus musculus with 4 samples.

Results

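The genes described here are 36 immediate early and activity-dependent genes, taken as a list of names. The list was chosen with earlier results of these data known. Of the 36, 35 were found by symbol among the 19505 genes named on the array. The missing member, Crem, was not analysed here. Where a gene had more than 1 row, the row with the highest mean stood for it, which concerned only Egr3. RNA came from brain cortex of male SAMR1 mice, the senescence-resistant line used as the normally ageing counterpart of the senescence-accelerated mouse. All mice had been kept singly for 4 months from 7 months of age. From 11 months of age, the TCQA group took 5 mg/kg of the plant polyphenol TCQA (a tricaffeoylquinic acid) orally every day for 1 month, and the water group was given MilliQ water. Each group held 2 Clariom S mouse arrays, labelled 1 and 2. Whether an array carried RNA from a single mouse or from pooled mice is not stated in the labels. The p-values therefore cover no more than the variation among these arrays, and that variation could be technical.

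Immediate early genes are switched on within minutes when synaptic activity raises calcium and cAMP in a neuron, without the need for new protein. Phosphorylated CREB, SRF with its ternary complex factors and MEF2 act on promoters and enhancers that are already poised. The first products are mostly transcription factors of the Fos, Jun, Egr, Nr4a and Npas4 families. Together with other activity-dependent genes, such as Arc, Homer1, Nptx2 and Inhba, they adjust synapses over the following hours. In cortex these transcripts therefore report recent activity of excitatory neurons, but several, among them Dusp1, Klf4, Nr4a1 and Fos, are also induced in glia and vessels by stress and by handling. The transcripts are short-lived, and no source used here gives the interval between the last dose and tissue collection.

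Promoter sequences are shown for members whose behaviour the results turn on and whose start site was in the RefSeq promoter table of GRCm38.p6, which held 25 of the 35 genes. The 3 Nr4a genes are shown because they differed in opposite directions, Dusp1 because it holds a full cAMP response element, and Fos as the reference gene of the family. Each run is the 250 bases before the annotated start, 5′ to 3′ on the gene's strand. Capitals mark the cAMP response element (TGACGTCA), its core (TGACG, which every full element contains) and the Egr element (GCGNGGGCG), on either strand.
Nr4a1, chr15:101266596-101266845, plus strand: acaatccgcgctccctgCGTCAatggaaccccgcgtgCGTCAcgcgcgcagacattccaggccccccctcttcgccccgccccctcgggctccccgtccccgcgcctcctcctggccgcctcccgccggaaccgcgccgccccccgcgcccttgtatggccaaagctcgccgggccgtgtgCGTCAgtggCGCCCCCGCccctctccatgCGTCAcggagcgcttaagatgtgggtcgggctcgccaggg
Nr4a2, chr2:57124004-57124253, minus strand: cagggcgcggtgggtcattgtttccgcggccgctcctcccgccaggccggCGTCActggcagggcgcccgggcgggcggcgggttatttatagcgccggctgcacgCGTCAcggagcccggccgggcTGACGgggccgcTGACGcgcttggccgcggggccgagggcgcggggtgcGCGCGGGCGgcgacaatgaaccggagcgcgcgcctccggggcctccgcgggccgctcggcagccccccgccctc
Nr4a3, chr4:48045055-48045304, plus strand: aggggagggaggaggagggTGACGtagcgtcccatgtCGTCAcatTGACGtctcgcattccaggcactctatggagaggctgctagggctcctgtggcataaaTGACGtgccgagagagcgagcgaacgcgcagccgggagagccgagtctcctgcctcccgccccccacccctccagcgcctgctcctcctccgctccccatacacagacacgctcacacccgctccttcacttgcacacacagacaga
Fos, chr12:85473640-85473889, plus strand: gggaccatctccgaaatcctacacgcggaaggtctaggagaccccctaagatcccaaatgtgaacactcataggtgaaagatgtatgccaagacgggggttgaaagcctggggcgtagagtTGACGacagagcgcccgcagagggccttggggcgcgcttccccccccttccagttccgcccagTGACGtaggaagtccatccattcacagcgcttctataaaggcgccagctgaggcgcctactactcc
Dusp1, chr17:26508473-26508722, minus strand: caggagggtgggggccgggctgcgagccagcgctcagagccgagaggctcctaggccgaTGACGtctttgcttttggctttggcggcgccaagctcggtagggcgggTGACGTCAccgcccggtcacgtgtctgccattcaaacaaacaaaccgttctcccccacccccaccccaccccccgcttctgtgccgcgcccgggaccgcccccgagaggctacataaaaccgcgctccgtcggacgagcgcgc

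In windows of 300 bases (250 before and 50 after the start, both strands, any window of a gene), the core was present in 18 of the 25 members with a sequence (72.0%), against 27.1% of 15691 genes on the array. Nr4a1, Nr4a2 and Nr4a3 held 4 cores each, and these lay at different distances from the start. The full element was present in 3 members, Btg2, Dusp1 and Maff (12%, against 2.63%). The Egr element was present in 8 members (32.0%, against 8.96%), and the CArG box, which SRF binds, in 2, Egr2 and Dusp5 (8%, against 1.7%). The AP-1 element TGANTCA was present in 1 member, Csrnp1 (4%, against 8.35%). The median GC content of the windows was 64.7% in the members and 57.0% in genes on the array, and its part in these shares was not tested. A match in letters is a description of the window and does not show that a factor binds there.

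Values are log2 signals after SST-RMA, the array maker's background correction and normalisation, so that a difference of 1 is a 2-fold change. The 4 arrays had medians from 6.98 to 7.04. The probe sets that the array uses as negative controls had a median of 6.98 and a 95th percentile of 11.06, and signal below that median cannot be read as a level. Of the 35 members, 10 had a mean below the negative control median (Fos, Egr4, Dusp4, Npas4, Ier2, Klf4, Btg2, Csrnp1, Maff and Trib1), and 6 lay above the 95th percentile (Jund, Egr1, Nr4a2, Nr4a3, Dusp1 and Homer1). Of 14 measured markers of cortical excitatory neurons, 8 lay above that percentile, and 1 lay below the negative control median. Among control genes, Actb differed by 0.02, Gapdh by -0.09 and Hprt by 0.26 (TCQA minus water).

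**Figure D1:**
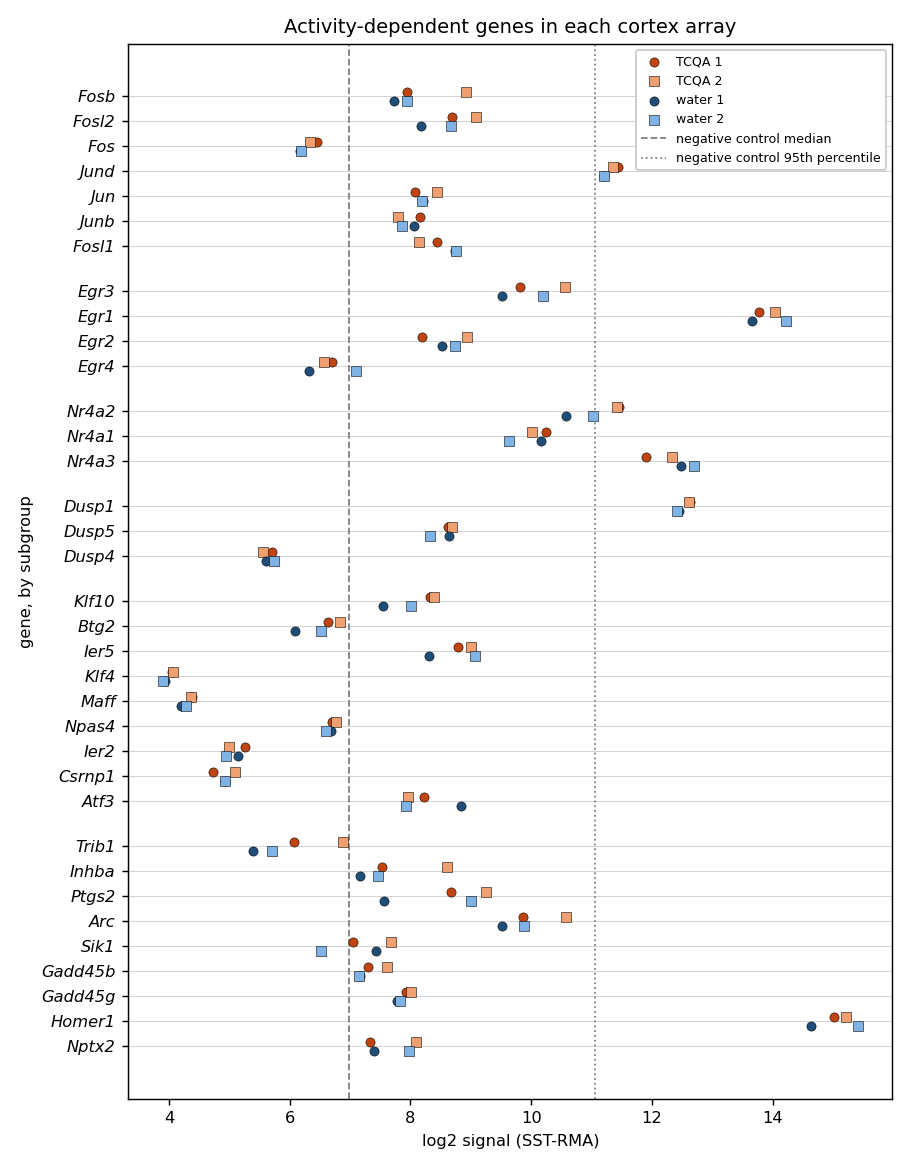
Log2 signal (x axis) of each of the 35 measured genes (y axis, by subgroup) in the 4 arrays, one point per array. The dashed and dotted lines are the median (6.98) and the 95th percentile (11.06) of the negative control probe sets, and 10 genes have means left of the dashed line.

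The comparison of TCQA with water asked whether a month of treatment left activity-dependent transcription in cortex at another level. The members were on the whole slightly higher in the TCQA arrays. Of the 35 genes, 27 had a higher mean after TCQA, with a median log2 difference of 0.18, where 50.5% of all 19572 rows with a symbol were higher and their median was 0.00. Both TCQA arrays lay above both water arrays for 15 members (42.9%), against 19.9% of all rows, and below them for 2 (5.71%), against 19.2%. All 35 differences were under 2-fold. Among the 25 members with a mean at or above the negative control median, the largest differences were those of Inhba, Ptgs2, Nr4a2 and Fosb, all higher in TCQA, while the largest in the other direction were those of Nr4a3 and Fosl1. Trib1 had a larger fitted difference, but all of its values lay below that median.

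No member passed a test corrected for the number of genes. With limma and Benjamini-Hochberg adjustment over all rows, 0 of 19572 passed (0%), and the members' adjusted p-values ran from 0.673 to 0.992. An unadjusted p under 0.05 was reached by 3 members that were higher (8.57%), Trib1, Nr4a2 and Klf10, where 3.48% of all rows were called in that direction. In the same model without empirical Bayes, which then uses each gene's own variance alone, Trib1, Nr4a2 and Klf10 lay above an unadjusted p of 0.05, and Klf4, Jund and Dusp1 lay under it. It was reached by 0 members that were lower, where 3.89% of all rows were. The criteria in the submitters' design text, an unadjusted p under 0.05 with over 2-fold, were met by 0 members and by 0.664% of all rows. The 3 called differences depended on the arrays used. With any 1 array left out, they ran from 0.52 to 1.33 for Trib1, from 0.40 to 0.86 for Nr4a2 and from 0.35 to 0.81 for Klf10. Members with a higher mean in TCQA numbered 27 without water 2, 24 without water 1, 28 without TCQA 1 and 24 without TCQA 2. With each array centred on its 75th percentile, 392 of all rows were called higher and 1168 lower, against 681 and 762 as deposited. In that setting 23 members had a higher mean in TCQA, and the members' median difference was 0.096, against -0.077 over all rows.

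The shares over all rows differed with brightness. Among the 9834 rows with a mean at or above the negative control median, 58.6% were higher in TCQA and 26.6% had both TCQA arrays above both water arrays. Of the 25 members in that range, 20 were higher and 9 (36%) had no overlap in that direction. Their median difference was 0.20, against 0.05 over those rows. Both TCQA arrays lay below both water arrays for 2 of the 25 (8%), against 15.6% of those rows. By limma, an unadjusted p under 0.05 was reached by 2 of the 25 that were higher (8%), against 4.12% of those rows. It was reached by 0 that were lower, against 1.58%.

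**Figure D2:**
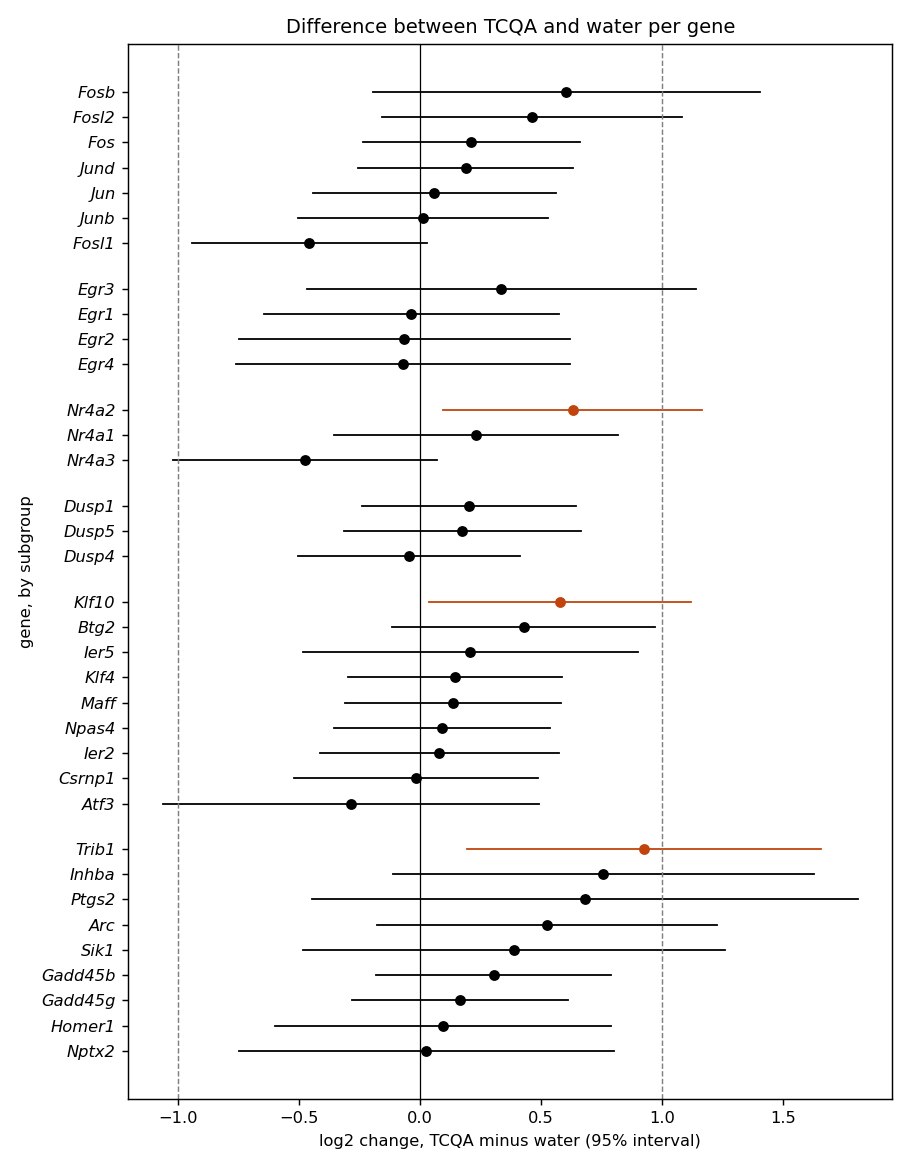
Log2 difference between TCQA and water (x axis, TCQA minus water) for each gene (y axis, by subgroup), with 95% intervals from limma's moderated standard errors and dashed lines at 2-fold. The 3 coloured genes, Trib1, Nr4a2 and Klf10, have an unadjusted p under 0.05, and every other interval includes 0.

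Fos and Jun proteins pair through leucine zippers to form the AP-1 factors. Of the 7 genes of this subgroup, 6 were higher in TCQA, with a median of 0.19. In that direction 4 had no overlap (57.1%), against 19.9% of all rows and 26.6% of rows at or above the negative control median. Of these 4, Fos lay below that median. With all arrays, 0 of the 7 had an unadjusted p under 0.05. The number higher was 4 after quantile normalisation and after 75th percentile centring, where Jun and Junb were lower.

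Fosb, whose truncated product accumulates with repeated stimulation, lay at 7.95 and 8.92 in TCQA and at 7.72 and 7.94 in water. The difference of 0.60 (SE 0.33, limma's adjusted p = 0.697) came mainly from TCQA 2, since TCQA 1 exceeded the higher water array only marginally. It was 1.09 without TCQA 1 and 0.12 without TCQA 2.

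Fosl2, a slower and longer-lasting Fos relative, lay at 8.68 and 9.09 in TCQA and at 8.17 and 8.67 in water, a difference of 0.46 (SE 0.26, limma's adjusted p = 0.699). The groups were again almost touching. Without water 1 the difference was 0.21, without TCQA 2 it was 0.26, and without water 2 it was 0.71.

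Fosl1, which encodes the AP-1 subunit Fra-1, ran the other way, at 8.44 and 8.14 in TCQA against 8.74 and 8.76 in water. Its difference was -0.46 (SE 0.20, limma's adjusted p = 0.683), and both water arrays were higher than both TCQA arrays. The value lay between -0.61 and -0.31 when any 1 array was left out.

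Fos itself was dim, at 6.45 and 6.34 in TCQA and at 6.17 and 6.19 in water, all below the negative control median. The arrays were ordered by group but the difference of 0.21 had a 95% interval from -0.24 to 0.66. Jund, the constitutively expressed Jun gene and the 1 member of this subgroup above the negative control 95th percentile, lay at 11.44 and 11.35 against 11.21 and 11.20, a difference of 0.19 (95% interval -0.26 to 0.63). Jun, a partner of Fos, differed by 0.06 and Junb, a weaker activator than Jun, by 0.01, each with overlapping groups.

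Egr proteins are zinc-finger factors that bind GC-rich sites, and Egr1 is among the most used markers of cortical activity. The Egr genes did not separate the groups. Of the 4, 1 was higher in TCQA, with a median of -0.05, and in 0 of the 4 were the groups free of overlap. Egr1, the bright member, lay at 13.78 and 14.05 in TCQA and at 13.67 and 14.23 in water, a difference of -0.04 (95% interval -0.64 to 0.57). Its lowest and its highest array were both water arrays. Egr2, a factor of myelination in the periphery and an activity gene in brain, differed by -0.06 and Egr4, which was near the negative control median, by -0.07.

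Egr3, a factor downstream of Egr1-inducing signals with roles in memory, lay at 9.82 and 10.57 in TCQA and at 9.52 and 10.19 in water on its brightest row, a difference of 0.34. Its other rows differed by 0.54 and 0.14, so the sign was shared while the size was not, and overlap was present on all 3. In all 4 Egr genes water 2 lay above water 1, by a median of 0.62, and in 3 of 4 TCQA 2 lay above TCQA 1, by a median of 0.51. Both median gaps were larger than any of the 4 differences between the groups, the largest of which was the 0.34 of Egr3. After leaving out water 2 all 4 Egr genes were higher in TCQA, after leaving out TCQA 1 it was 3, after leaving out water 1 it was 1, and after leaving out TCQA 2 it was 0.

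The Nr4a genes encode orphan nuclear receptors that act without a known natural ligand and are induced by cAMP and calcium. Nr4a2 and Nr4a3 differed in opposite directions, neither with an adjusted p under 0.05. The promoters of both carry 4 cores of the cAMP response element, and a link between the cores and the differences was not tested. Nr4a2, which also marks claustrum and deep cortical layers, lay at 11.45 and 11.42 in TCQA and at 10.58 and 11.03 in water. Both TCQA arrays were higher, and the water arrays were further from each other than the TCQA arrays were. The difference of 0.63 (SE 0.22), or 1.55-fold, had an unadjusted p of 0.0277 and an adjusted p of 0.673 by limma. The difference was 0.62 without TCQA 1, 0.64 without TCQA 2 and 0.40 without water 1, each with an unadjusted p above 0.05. Without water 2 it was 0.86, with an unadjusted p of 0.0128.

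Nr4a3, studied with Nr4a1 in memory consolidation and in metabolic tissues, lay at 11.90 and 12.33 in TCQA and at 12.49 and 12.70 in water. Both TCQA arrays were lower, and the difference was -0.48 (SE 0.23, limma's adjusted p = 0.687). It was -0.26 without TCQA 1 and -0.69 without TCQA 2. Nr4a1, the fastest-induced receptor of the family, lay at 10.24 and 10.01 against 10.16 and 9.63. Its groups overlapped, the difference was 0.23 (95% interval -0.36 to 0.82), and it was -0.03 without water 2.

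Dual-specificity phosphatases of the Dusp family switch off MAP kinases and are induced by the kinases that they restrain. Dusp1, which acts mainly in the nucleus on p38, JNK and ERK, was bright and tight within groups, at 12.64 and 12.62 in TCQA and at 12.45 and 12.41 in water. The groups did not overlap, and the difference was 0.20 (SE 0.18, 95% interval -0.24 to 0.64), that is 1.15-fold. The SE is larger than the gap between the arrays of either group, because limma moderates each gene's variance towards that of all genes, and the same model without that step gave an unadjusted p of 0.0112. Dusp5, a nuclear phosphatase selective for ERK, differed by 0.18 with overlap, and Dusp4, of similar location, by -0.05 at a signal below the negative control median.

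The other nuclear regulators of the list act beside these families or limit them. Of 9 measured, 7 were higher in TCQA, with a median of 0.14, but 6 of the 9 had means below the negative control median. The clearest was Klf10, a zinc-finger repressor induced by TGF-beta and by activity, at 8.32 and 8.39 in TCQA and at 7.55 and 8.01 in water. Both TCQA arrays were higher, and the difference was 0.58 (SE 0.23), or 1.49-fold, with an unadjusted p of 0.0399 and an adjusted p of 0.673 by limma. The difference was 0.61 without TCQA 1, 0.54 without TCQA 2 and 0.35 without water 1, each with an unadjusted p above 0.05, and 0.81 without water 2, with one below it. The unadjusted p also lay above 0.05 after quantile normalisation (a difference of 0.52), after 75th percentile centring (0.50) and with the variance prior fitted over the control probe sets too.

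Btg2, an antiproliferative cofactor and target of p53, was dim at 6.63 and 6.83 in TCQA and at 6.08 and 6.52 in water. The groups did not overlap, with a difference of 0.43 (SE 0.23, limma's adjusted p = 0.690), which was 0.21 without water 1 and 0.65 without water 2. Atf3, a stress-induced repressor of the CREB family, had the largest difference towards water in this subgroup, at 8.23 and 7.96 against 8.83 and 7.92, where only water 1 stood out. It was -0.74 without water 2 and 0.17 without water 1. Npas4, a neuron-restricted factor that answers calcium entry, lay between 6.61 and 6.76 in all arrays, below the negative control median, and differed by 0.09. Ier5, a regulator of heat shock factor, differed by 0.21 with overlapping groups. Klf4 and Maff, at 3.98 and 4.31 on average, were the dimmest members, and together with Ier2 and Csrnp1 they give no usable level.

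Effectors are the products that carry activity to the synapse, to other cells or to the signalling machinery. All 9 were higher in TCQA in the mean, with a median of 0.39. The groups did not overlap for 4 (44.4%), against 19.9% of all rows and 26.6% of rows at or above the negative control median. Of these 4, Trib1 lay below that median. The differences ran from 0.03 for Nptx2 to 0.93 for the dim Trib1. TCQA 2 was the highest array for 8 of the 9, and TCQA 2 exceeded TCQA 1 for all 9. The median was 0.15 without TCQA 2 and 0.70 without TCQA 1, and the number higher was 7 without TCQA 2 and 6 after leaving out water 1. It was 8 after quantile normalisation and 8 after 75th percentile centring, where Nptx2 was lower.

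Trib1, a pseudokinase that steers substrates to the COP1 ubiquitin ligase, had the largest fitted difference of all members, at 6.07 and 6.88 in TCQA and at 5.39 and 5.71 in water. Both TCQA arrays were higher, but all 4 values lay below the negative control median, so the size is uncertain. The difference was 0.93 (SE 0.30), with an unadjusted p of 0.0209 and an adjusted p of 0.673 by limma. It was 0.52 without TCQA 2 and 0.76 without water 1, where the unadjusted p rose above 0.05, and 1.33 without TCQA 1.

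Inhba, the subunit of the secreted factor activin A, which supports spine growth and neuronal survival, lay at 7.54 and 8.61 in TCQA and at 7.16 and 7.47 in water. TCQA 2 stood well above the other arrays, while TCQA 1 was just above water 2. The difference of 0.76 (SE 0.36, limma's adjusted p = 0.687) was 0.22 without TCQA 2 and 1.29 without TCQA 1.

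Arc, the capsid-like protein that drives removal of AMPA receptors, lay at 9.86 and 10.59 in TCQA and at 9.51 and 9.88 in water. TCQA 1 and water 2 were nearly equal, so the groups overlapped. The difference was 0.52 (SE 0.29, limma's adjusted p = 0.700), 0.89 without TCQA 1 and 0.16 without TCQA 2.

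Ptgs2, the inducible cyclooxygenase of excitatory neurons, lay at 8.68 and 9.25 in TCQA and at 7.57 and 9.0 in water. Water 1 was the array apart, and the difference of 0.68 (SE 0.47, limma's adjusted p = 0.741) was -0.04 without it and 1.40 without water 2. Gadd45b, which takes part in activity-dependent DNA demethylation, lay at 7.30 and 7.61 in TCQA and at 7.16 and 7.14 in water, without overlap, and differed by 0.30 (SE 0.20, limma's adjusted p = 0.734). That difference was 0.15 without TCQA 2 and 0.46 without TCQA 1.

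Homer1, whose short activity-induced form uncouples metabotropic glutamate receptors, was the brightest member, and 1 row stood for all of its transcripts. It lay at 15.02 and 15.22 in TCQA and at 14.64 and 15.41 in water, where the water arrays enclosed the TCQA arrays, and it differed by 0.09 (95% interval -0.60 to 0.79). Nptx2, a secreted pentraxin that gathers AMPA receptors on interneurons, differed by 0.03, Sik1, a kinase that restrains CREB coactivators, by 0.39 with wide overlap, and Gadd45g, a relative of Gadd45b, by 0.16 without overlap.

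**Figure D3:**
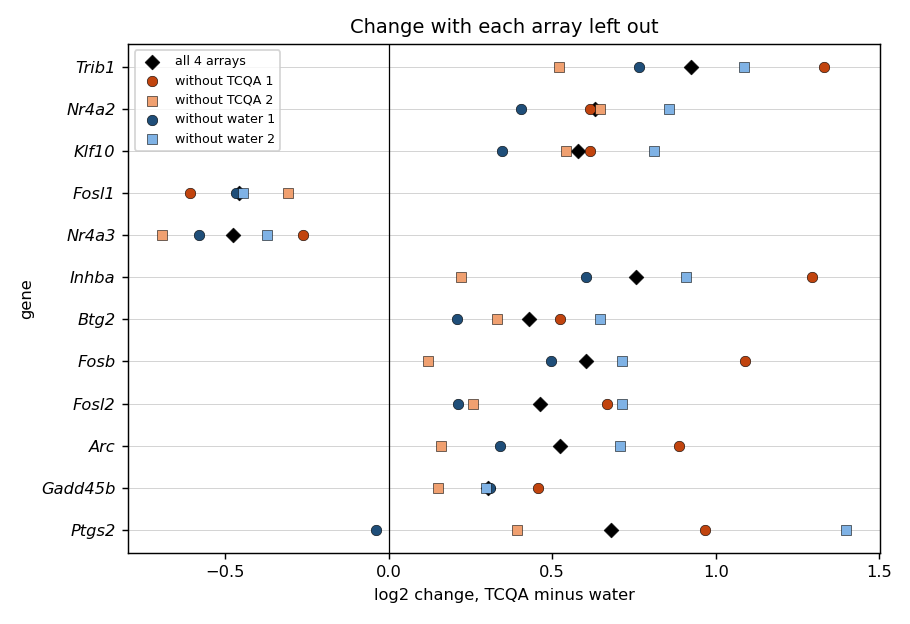
Log2 difference between TCQA and water (x axis) for the 12 members with the smallest p (y axis), with all 4 arrays and with each array left out. Fosb, Inhba and Arc move towards 0 without TCQA 2 (0.12, 0.22 and 0.16), and Ptgs2 does so without water 1 (-0.04).

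The members' order over the arrays followed TCQA 2 and water 1. TCQA 2 was the highest array for 19 of 35 members (54.3%), against 27.4% of all rows, and water 1 the lowest for 17 (48.6%), against 26.6%. Among the 25 members with a mean at or above the negative control median, these shares were 56% and 48%. Of all rows in that range, they were 35.2% and 33.4%. In markers of tissue, these arrays and others stood apart. The 11 measured olfactory bulb markers had a mean of 8.83 in TCQA 2 and of 6.77 in TCQA 1, against 7.31 and 6.91 in water 1 and 2. The 12 striatal markers had a mean of 13.29 in water 1 and of 12.22 in water 2, against 12.42 and 11.88 in TCQA, and 0 of the 12 were higher in TCQA. Cortical excitatory neuron markers ran the other way, with means of 11.35 in water 1, 11.87 in water 2 and 11.96 and 11.91 in TCQA, and 12 of 14 were higher in TCQA. Thalamic markers were lowest in TCQA 1, with a mean of 8.19 against 9.13 in TCQA 2 and 9.37 and 8.69 in water. Of the 10, 3 were called lower by an unadjusted p under 0.05 (30%), against 3.89% of all rows. Markers of myelinating oligodendrocytes were lower in TCQA for 9 of 11, and were highest in water 1 for 10. For 6 of the 11 they were lower without overlap (54.5%), against 19.2% of all rows. Means below the negative control median were found for 6 of the 11 olfactory bulb markers, 3 of the 10 thalamic and 0 of the 12 striatal ones. The part of tissue composition in the members' differences was not tested. In RNA of whole tissue, fewer cells of a type and less RNA per cell cannot be told apart.

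**Figure D4:**
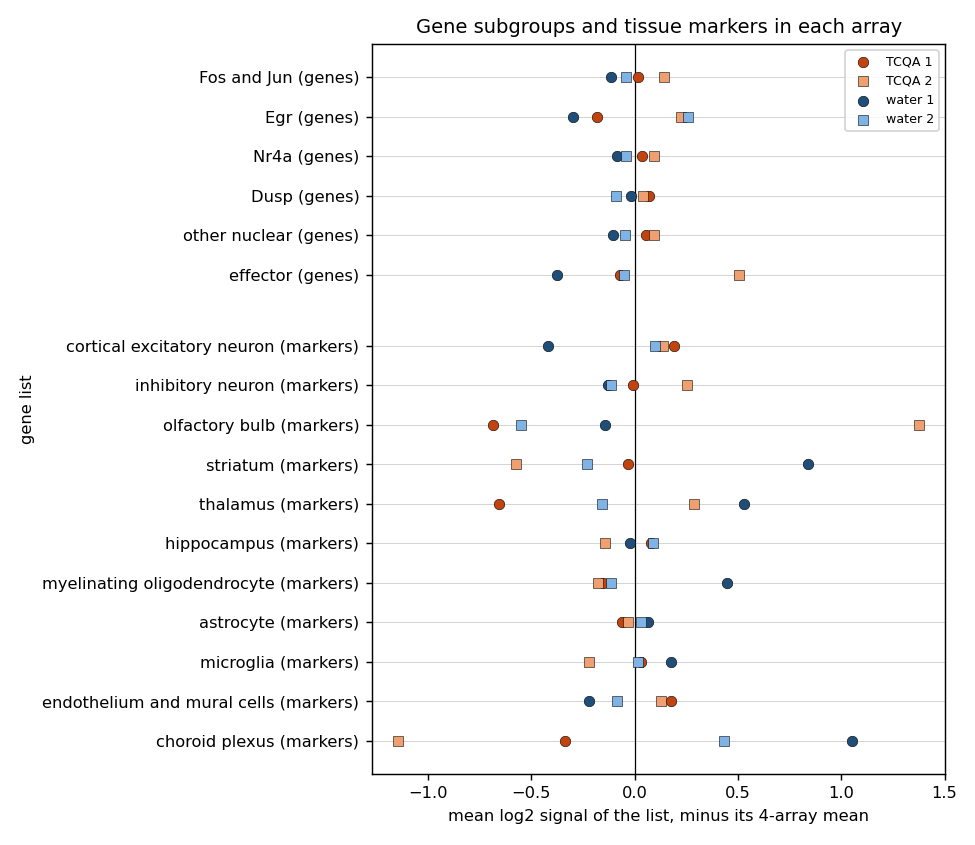
Mean log2 signal of each gene subgroup (upper 6 lines) and of each marker list (lower 11 lines) in each array, minus the mean of that list over the 4 arrays (x axis). TCQA 2 is highest for effectors (0.50) and olfactory bulb markers (1.38), and water 1 is lowest for effectors (-0.38) and excitatory neuron markers (-0.42).

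Endothelial and mural cell markers, of interest because Klf4, Dusp1 and Fos are also induced in vessels, were higher in TCQA for 11 of 12 genes, with a median of 0.26, and 3 were called higher by an unadjusted p under 0.05 (25%), against 3.48% of all rows. Their means were 9.40 and 9.35 in TCQA and 9.01 and 9.14 in water. Microglial markers had a median of -0.07, with 1 of 9 higher. Choroid plexus markers were lower for 11 of 11, with a median of -1.25. Of these, 8 were called lower by an unadjusted p under 0.05 (72.7%), against 3.89% of all rows, and 7 also differed by over 2-fold, while 6 had means below the negative control median. None of these was tested as a source of the members' differences.

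Genes around the members were described from lists written for this comparison. Over all rows, 50.5% had a higher mean in TCQA, and 3.48% were called higher and 3.89% lower by an unadjusted p under 0.05. Among rows at or above the negative control median, these shares were 58.6%, 4.12% and 1.58%. Among carriers of the signal to the nucleus, 11 of 21 measured genes were higher (52.4%), with a median of 0.02, and 2 were called higher (9.52%) and 0 lower by an unadjusted p under 0.05. Mrtfa, an actin-regulated coactivator of SRF, lay at 8.08 and 8.81 in TCQA and at 7.65 and 7.48 in water, a difference of 0.88 (SE 0.28) that was 0.51 without TCQA 2 and 0.80 without water 2, above an unadjusted p of 0.05 in both. Crtc1, the CREB coactivator that travels from synapse to nucleus, differed by 0.45, and its unadjusted p was above 0.05 without any 1 of the arrays, with values from 0.40 to 0.51. Srf itself differed by -0.52 and the ERK kinase Map2k1 by -0.36, each without overlap and short of that threshold.

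Among partners and brakes of Fos, Jun and Egr, 11 of 15 were higher (73.3%), with a median of 0.14, and 2 were called higher (13.3%) and 0 lower. Nab2, an Egr-induced corepressor that shuts off Egr factors, lay at 8.90 and 9.42 in TCQA and at 8.05 and 8.24 in water. Both TCQA arrays were higher, by 1.01 (SE 0.24), with an unadjusted p of 0.0046 and an adjusted p of 0.642 by limma, while the Egr genes themselves did not differ in a common direction. Mapk10, the neuronal JNK that phosphorylates Jun, lay at 16.62 and 16.75 in TCQA and at 15.78 and 16.06 in water, a difference of 0.76 (SE 0.20). Nab2 kept an unadjusted p under 0.05 with any 1 array left out (0.76 to 1.27), as did Mapk10 (0.62 to 0.90). Without empirical Bayes the unadjusted p of Nab2 was 0.066, and those of Mrtfa and Tsc22d3 were above 0.05 too. The related Mapk9 differed by 0.34 and Mafg by 0.32, short of the threshold.

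Of 43 further rapid activity genes, 29 were higher (67.4%), with a median of 0.15, and 2 were called higher (4.65%) and 0 lower. Tsc22d3, a glucocorticoid-induced leucine zipper protein, differed by 0.65 and Mcl1, a survival factor of the Bcl2 family, by 0.47. Their unadjusted p lay above 0.05 after leaving out TCQA 2 (differences of 0.37 and 0.50), water 1 (0.76 and 0.56) or water 2 (0.55 and 0.38), and that of Mcl1 also without TCQA 1 (0.45). The next gene by p was Amigo3, a leucine-rich repeat adhesion protein that was dim and differed by -0.65 without overlap. Of 26 delayed secreted and synaptic genes, 15 were higher (57.7%), with a median of 0.12, and 2 were called higher (7.69%) and 0 lower. Grasp, a scaffold of metabotropic glutamate receptors also known as tamalin, lay at 10.90 and 11.15 in TCQA and at 9.83 and 9.95 in water. It differed by 1.13 (SE 0.20), with an adjusted p of 0.642 by limma, and stayed between 1.00 and 1.26 with an unadjusted p under 0.05 when any 1 array was left out. Serpinb2, which was dim, differed by 0.51 and lost that threshold without any 1 array (0.41 to 0.60). Vgf, a secreted peptide precursor, differed by 0.54 and Pmepa1, a brake of TGF-beta signalling, by 0.44, without reaching it. Of the 9 other Dusp genes, 5 were higher, with a median of 0.02, and 0 were called, Dusp7 being nearest at 0.53, followed by Dusp2 at -0.29, Dusp9 at 0.10 and Dusp3 at 0.07.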

How the data were processed

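Labelled cDNA from 100 ng of RNA per array was hybridised to 4 Clariom S mouse arrays. The deposited values are log2 signals, which, according to the design text and per the labels' tool list, the authors made by SST-RMA (software Transcriptome Analysis Console, version 4.0.2). RMA fits all arrays to one distribution, so the values carry no depth. Precision is limited by having 2 arrays per group. The authors' filters on detection were not applied here, and their genome build was not named in any source used.

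Symbols came from the platform annotation (19572 of 28846 rows, none with several). Groups came from the sample titles. Each row was fitted with limma 3.58.1 (R 4.3.3, lmFit and eBayes, 2-sided, Benjamini-Hochberg adjustment over all 19572 rows). The fit was also run on simulated arrays drawn from its own variance prior, so these cannot show whether that prior suits the real arrays. There limma gave an unadjusted p under 0.05 for 46% of rows with a difference of 0.5 and for 4.92% of unchanged rows. Of 285 listed symbols 267 were measured, 4 of them under a newer name found through RefSeq. Members, subgroups and lists were chosen with earlier results of these data known, and the lists are described by counts and medians, with no test. The rule for array-by-array values was the 12 members with the smallest p; other such values were chosen after they were seen. Up to 4 genes with the smallest p were named per surrounding list. Alternatives covered the variance prior, normalisation, centring, dim rows, array weights, a replicate block, rows per symbol and each array left out. Promoters were searched with Python 3.11.15 and figures drawn with matplotlib 3.10.9.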

Additional observations from a re-analysis of the deposited data

How the results depend on the processing

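The log2 difference of more than 1 member changed under 7 alternatives, all of which were run on all 35 members: 2 centrings, quantile normalisation and each array left out. In these, 19 members kept their direction and 16 reversed in at least 1. Variance settings, array weights and the block changed p-values only, and the filters on dim rows held 25 and 6 members. For reversals the cause was not tested, nor for other shifts except where fewer rows or arrays account for a count. With an intensity trend, an unadjusted p under 0.05 was reached by 1 lower member of 35 (Nr4a3) and by 684 lower rows of 19572. Without empirical Bayes 55 of all rows passed p and 2-fold, against 130. Quantile normalisation gave 2 lower members (Fosl1 and Nr4a3), with 679 of all rows called lower, and medians of 0.17 (Nr4a) and 0.11 (Dusp). It reversed Jun (-0.011), Nptx2 (-0.026), Dusp4 (0.033), Junb (-0.039) and Csrnp1 (0.067). Median centring reversed Junb (-0.0055). The 75th percentile centring gave 392 rows higher, 1168 lower, 2 lower members, medians of 0.11 (Fos and Jun), 0.15 (Nr4a), 0.096 (Dusp) and 0.058 (other nuclear), and reversed Jun (-0.021), Nptx2 (-0.054), Ier2 (-0.0006) and Junb (-0.067). Among rows at or above the median signal, 267 were called lower, 44 passed both criteria, 1 of 25 members was called lower, and the other nuclear median was 0.21. Among the 3222 rows at or above the negative control 95th percentile, 300 were called higher, 113 lower and 7 passed both. Of the 6 members there, 4 had a higher mean, 1 was called higher and 1 lower, and the Nr4a median was 0.077. Signal over the negative controls thus limits what the dim members can show.

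With the replicate number as a block, 5 members were called higher, Ptgs2 and Inhba being added, against 3. Of all 19572 rows, 704 were called higher with the block, against 681 without it. Over all 19572 rows, deviations of same-numbered arrays correlated at -0.0032, so over all rows the numbers give no evidence of pairing. Among the members, array 2 lay above array 1 for 23 of 35 in TCQA and for 23 in water. For all rows these counts were 9802 and 9620, and for the 9 effectors they were 9 and 7. Pairing among the members was not tested.

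With 1 array left out, the lone array of a group is assumed to vary like the other group. Rows past both criteria then numbered 218 to 428 and adjusted calls over all rows 0 to 2. Members called higher numbered 0 to 6 and lower 0 to 1. Every TCQA array lay above every water array for 18 to 24 members and below for 3 to 7, where fewer arrays make separation more common (35.9% of all rows above, without TCQA 1). Medians ran from -0.033 to 0.40 (Nr4a) and from 0.021 to 0.22 (Dusp). The members that reversed ranged as follows: Ptgs2 from -0.037 to 1.40, Ier5 from -0.17 to 0.59, Atf3 from -0.74 to 0.17, Jun from -0.12 to 0.24, Nptx2 from -0.35 to 0.40, Egr4 from -0.46 to 0.32, Dusp4 from -0.11 to 0.021, Ier2 from -0.052 to 0.21, Junb from -0.16 to 0.19, Csrnp1 from -0.20 to 0.16, Egr2 from -0.44 to 0.31, Homer1 from -0.29 to 0.48, Nr4a1 from -0.033 to 0.50, Sik1 from -0.075 to 0.85, Egr1 from -0.32 to 0.25, and Egr3 from -0.036 to 0.71.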

Other observations

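The 2 arrays of a group differed from each other by more than the groups did for several members. Ptgs2 was higher in water 2 than in water 1 by 1.43, Inhba was higher in TCQA 2 than in TCQA 1 by 1.07, and Sik1 was higher in water 1 than in water 2 by 0.93. Over the 35 members, the difference between the groups exceeded the larger of both gaps within groups for 12 (34.3%), against 26.8% of all rows with a symbol. Among the 25 members with a mean at or above the negative control median it did so for 7 (28%), against 29.5% of all rows in that range. The 12 were Trib1, Nr4a2, Klf10, Nr4a3, Fosl1, Fos, Dusp1, Jund, Gadd45g, Klf4, Maff and Npas4, of which 5 had means below the negative control median (Trib1, Fos, Klf4, Maff and Npas4).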
